A study of Mus musculus with 10 samples.

Results

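The genes described here are 10 genes of cytokine signalling, namely the ligands *Il1a*, *Il6*, *Il15*, *Il33*, *Il34* and *Csf1*, the receptor antagonist *Il1rn*, and the receptor chains *Il1r1*, *Il6ra* and *Il4ra*. They were taken by gene name from the 54532 genes of the deposited table, and all 10 were found once each. Whole neural retinas of 2-month-old BALB/c mice, an albino strain, were profiled by RNA-seq. After dark adaptation for 12 hr, the mice spent 1 day under normal light of 200 lux (NL, n = 5 retinas) or under high-intensity light of 15000 lux (LD, n = 5 retinas). By the labels, the NL group holds numbers 1, 4, 5, 7 and 8 and the LD group numbers 1, 4, 6, 7 and 8. They state neither the sex of the mice nor whether 2 retinas came from the same animal. The study used this exposure to look for light-induced factors that could protect photoreceptors.

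Interleukins and colony-stimulating factors are secreted proteins through which glia, neurons, vessels and immune cells signal to each other. Members of the IL-1 family bind receptors that act through MYD88 and IRAK proteins, IL-6 acts through a ligand-binding chain and the shared chain gp130, and IL-4 and IL-15 act through receptors coupled to JAK kinases. CSF1 and IL-34 are unrelated in sequence but bind the same receptor, CSF1R, on which microglia, the resident macrophages of the retina, depend for survival.

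Levels are given as FPKM, the fragments per kilobase of gene, scaled to library size, so that genes of different length can be set side by side. LD was compared with NL in limma on log2(FPKM + 0.1) over 24508 genes that reached 0.1 FPKM in 5 retinas or more. A gene was called changed at an adjusted p (Benjamini-Hochberg, over all these genes) under 0.01 and a fold change above 2. Fold changes on this scale are understated for genes with low FPKM. Of the 10 genes, 9 passed the filter and *Il6* did not.

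The libraries held 21.3 M (mega) to 26.8 M recovered reads under NL and 19.0 M to 23.4 M after LD. All 6 rod marker genes were detected and all were lower after LD, with summed levels of 7511 to 9236 FPKM under NL and 1031 to 2204 FPKM after LD. From the RNA of whole tissue alone, fewer cells of a type and less RNA per cell cannot be told apart. In the paper's histology, retinas given this exposure had no obvious degeneration. Between retinas of a group, 3 pairs (NL-5 with NL-7, LD-1 with LD-7, and LD-4 with LD-6) were much closer to each other than the rest, with a chi-square per gene on the recovered reads, which is near 1 for counting error alone, of 2.65 to 3.65 against 12.2 to 43.4 for the other pairs. The 10 retinas were kept as separate samples, and the p-values measure only the spread between them. With each close pair averaged, 3 genes of the set were again called, while 1076 of 25580 genes were called in all, against 1595 of 24508 over the 10 retinas. *Xist*, the RNA of the inactive X chromosome, had 57965 to 89680 reads in NL-4, NL-8, LD-4 and LD-6 and 3 to 43 reads in the other 6 retinas.

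A promoter sequence was read from RefSeq (GRCm38.p6) for 8 of the 10 genes. The 250 bases before the first listed start are shown for *Csf1*, *Il6ra* and *Il1rn*, the 3 genes called higher after LD. They lie at chr3:107760470-107760719 (minus strand), chr3:89913197-89913446 (minus strand) and chr2:24336610-24336859 (plus strand), and the last bases of the *Il1rn* window lie inside the gene as deposited. Capitals mark letters that match an AP-1 motif (TGANTCA) or a kappaB motif (GGANTTTCC) on either strand.
Csf1: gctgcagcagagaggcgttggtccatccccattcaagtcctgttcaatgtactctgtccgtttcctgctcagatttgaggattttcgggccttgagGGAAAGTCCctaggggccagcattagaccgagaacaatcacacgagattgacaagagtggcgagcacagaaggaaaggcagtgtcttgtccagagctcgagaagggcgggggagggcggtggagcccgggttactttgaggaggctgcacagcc
Il6ra: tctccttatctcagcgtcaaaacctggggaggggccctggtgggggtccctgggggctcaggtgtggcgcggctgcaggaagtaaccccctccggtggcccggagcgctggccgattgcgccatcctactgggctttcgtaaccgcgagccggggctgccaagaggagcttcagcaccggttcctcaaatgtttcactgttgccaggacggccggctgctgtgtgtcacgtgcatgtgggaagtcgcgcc
Il1rn: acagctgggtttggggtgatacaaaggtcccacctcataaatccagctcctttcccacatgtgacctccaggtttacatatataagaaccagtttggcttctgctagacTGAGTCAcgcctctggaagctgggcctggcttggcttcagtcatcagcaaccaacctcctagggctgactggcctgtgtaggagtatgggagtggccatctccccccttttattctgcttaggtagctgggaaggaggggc
The *Csf1* window held 1 kappaB match, beginning 154 bases before the start, and the *Il1rn* window held 1 AP-1 match, beginning 141 bases before the start. The *Il6ra* window, which is 65.2% G and C, held neither, and none of the 3 windows held a STAT motif (TTCNNNGAA) or the core of an interferon response element (GAAANNGAA). The windows before starts 2 and 3 listed for *Il1rn*, not shown, held none of these motifs. Among the genes not shown, *Il1a* had an AP-1 match and *Il6* had an AP-1 and a kappaB match. Over the 32851 promoters of the table, 6.75% held the AP-1, 1.07% the kappaB, 7.02% the STAT and 7.13% the interferon motif in the same 250 bases. No matches overlapped each other, and a match in letters is not evidence that a factor binds there.

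After LD, 3 of the 9 tested genes were called higher and 0 lower. *Il1rn*, 1 of the 3, passed the filter only through its LD retinas, with at most 0.00845 FPKM under NL. Its place in this count and in those that follow was therefore favoured by the filter. Over all genes tested, 4.13% were called higher and 2.37% lower. An adjusted p under 0.01 at any fold was found for 5 of the 9, all higher, against 9.3% of all genes that were higher by this measure. In the same 5 genes the lowest LD value exceeded the highest NL value, which held for 11.8% of all genes tested. With the close pairs averaged, *Il1r1* (limma adjusted p = 0.0106) and *Il4ra* (0.0144) were no longer under 0.01. The median log2 fold change was 0.84 for the 9 genes and -0.01 for all genes, and it was the same 0.84 with *Il1rn* set at its lower bound. *Il15* alone had a negative fold change.

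**Figure D1:**
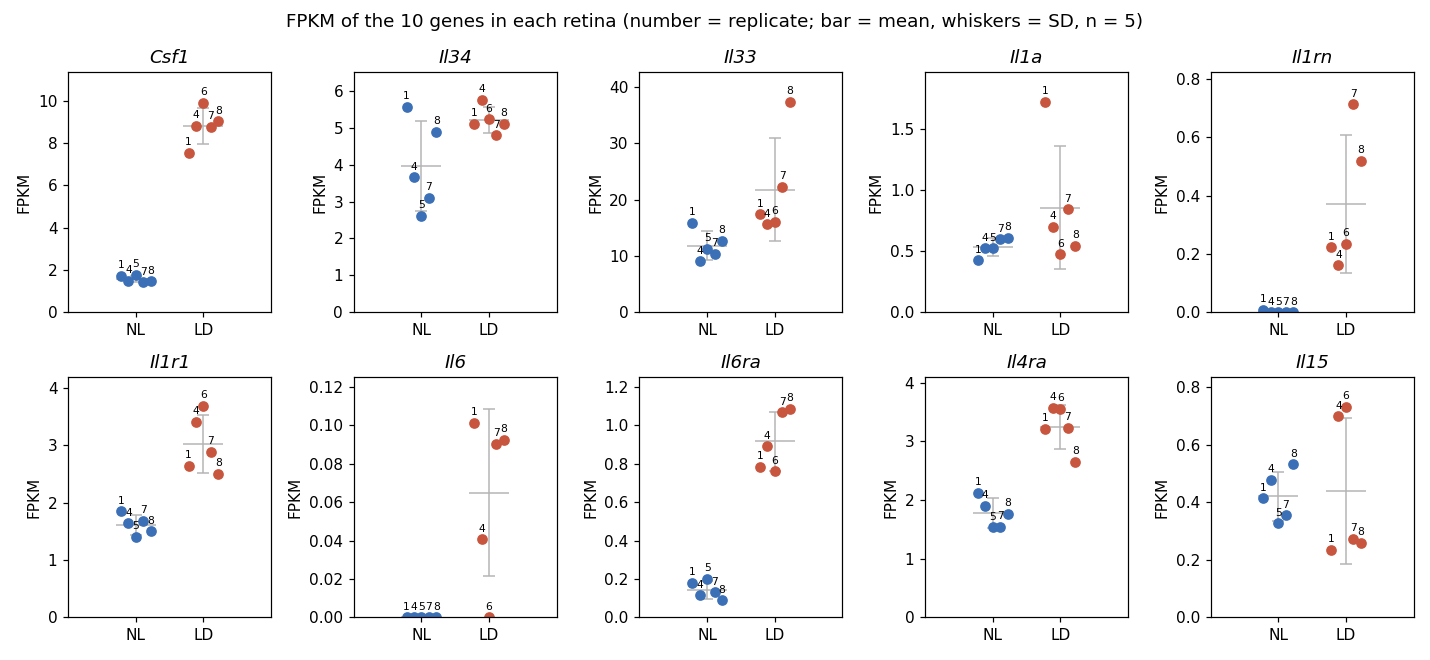
FPKM of the 10 genes in each of the 5 NL (blue) and 5 LD (red) retinas, each panel with its own linear axis from 0; the small numbers are replicate numbers, the grey bars means and the whiskers SD. The LD and NL points are fully apart for *Csf1*, *Il1rn*, *Il1r1*, *Il6ra* and *Il4ra*, and *Il15* splits into a high pair and 3 low points after LD.

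Of the 2 ligands of CSF1R, *Csf1* rose after LD and *Il34* did not pass the test. *Csf1* (ENSMUSG00000014599, chromosome 3 from 107741048 to 107760469, GRCm38, minus strand) was at 1.71, 1.49, 1.76, 1.42 and 1.46 FPKM in NL-1, NL-4, NL-5, NL-7 and NL-8. In LD-1, LD-4, LD-6, LD-7 and LD-8 it was at 7.55, 8.81, 9.91, 8.78 and 9.04 FPKM. The groups were far apart, and the lowest LD retina was above 4 times the highest NL retina. The means were 1.57 ± 0.157 and 8.82 ± 0.845 FPKM (SD, n = 5 each), a 5.62-fold difference of means and a change of 2.42 on the log2 scale (SE 0.09, limma adjusted p = 4.66e-08). *Csf1* was called under all 26 alternatives, with log2 fold changes of 1.93 to 2.62, and it rested on 159 to 199 reads in each NL and 943 to 1171 in each LD retina.

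*Il34* (chromosome 8 from 110741829 to 110805924) was at 5.56, 3.65, 2.61, 3.10 and 4.89 FPKM in the NL retinas and at 5.11, 5.77, 5.23, 4.80 and 5.11 FPKM in the LD retinas, in the same order of retinas. The NL values spread widely and the LD values lie near their upper end, with LD-4 above all of them. Means of 3.96 ± 1.23 and 5.20 ± 0.353 FPKM (SD, n = 5 each) gave a change of 0.43 on the log2 scale (SE 0.18, limma adjusted p = 0.103), which did not pass the test. Over the 26 alternatives the log2 fold change was 0.30 to 0.57 and the limma adjusted p 0.0256 to 0.358, and *Il34* was called under none.

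The ratio of *Csf1* to *Il34* FPKM was 0.299 to 0.674 under NL and 1.48 to 1.90 after LD, so that *Il34* had the higher level in every NL retina and *Csf1* in every LD retina. On the log2(FPKM + 0.1) scale the ratio was -1.24 ± 0.466 under NL and 0.75 ± 0.159 after LD (SD, n = 5 each), a difference of 1.98. This difference between the ligands was beyond the spread of the retinas (two-sided exact permutation test, p = 0.00794, adjusted p = 0.0119 over 3 ratios). The smallest p that 5 retinas against 5 allow is 0.00794. Averaging each close pair of retinas gave a difference of 2.10 (two-sided exact permutation test, p = 0.0286).

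**Figure D2:**
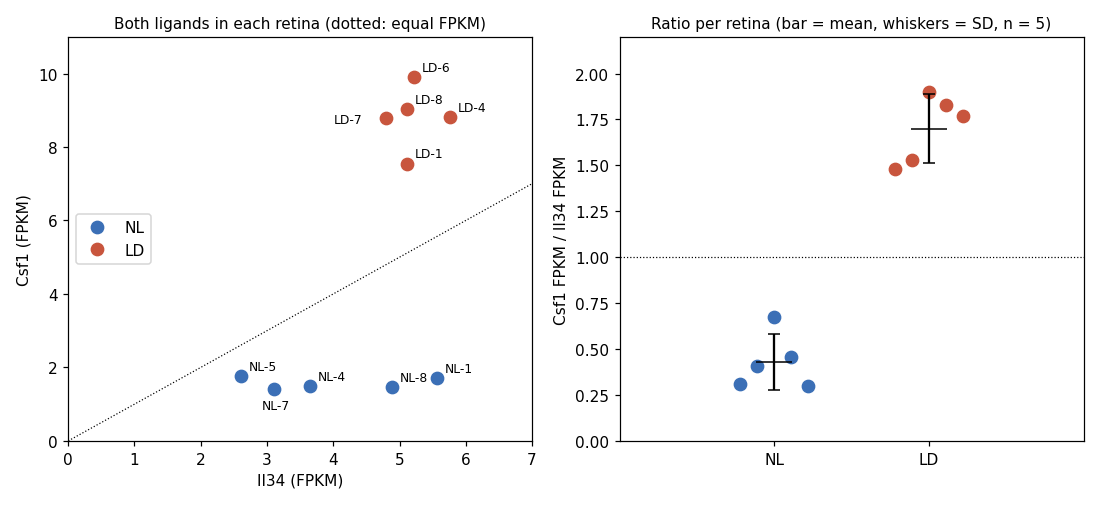
Left, *Csf1* against *Il34* in FPKM for each retina, with a dotted line of equal FPKM; right, their ratio per retina with mean and SD (n = 5). All 5 NL retinas lie under the line, with ratios of 0.299 to 0.674, and all 5 LD retinas above it, with ratios of 1.48 to 1.90.

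The common receptor gene *Csf1r* was at 4.11, 2.51, 2.49, 2.37 and 2.82 FPKM under NL and at 7.69, 4.10, 4.04, 6.14 and 3.09 FPKM after LD. The groups overlapped in LD-8 and the LD-4 and LD-6 pair, whose levels were under that of NL-1, and the change of 0.74 on the log2 scale (SE 0.24, limma adjusted p = 0.0412) was not called. *Ptprz1*, which encodes a second receptor of IL-34, had 1248 to 2024 reads in each NL and 1045 to 1467 in each LD retina and was not called either (log2 fold change -0.35, adjusted p = 0.0707). Of 8 microglial markers, 4 were called higher, among them *Cx3cr1*, *C1qa* and *Aif1*, while *P2ry12*, *Tmem119*, *Siglech* and *Csf1r* were not called. The summed level of the 8 markers was 26.9 to 40.8 FPKM under NL and 45.7 to 110 FPKM after LD, and its part in the levels of *Csf1* was not tested.

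In the IL-1 family, *Il33* had the highest level of the set in both groups and was not called, and the antagonist gene *Il1rn* was called higher. *Il33* (chromosome 19 from 29925114 to 29960718), a nuclear cytokine that is released from damaged cells, was at 15.8, 9.05, 11.2, 10.3 and 12.7 FPKM in NL-1, NL-4, NL-5, NL-7 and NL-8 and at 17.4, 15.6, 16.1, 22.3 and 37.4 FPKM in LD-1, LD-4, LD-6, LD-7 and LD-8. LD-8 was far above the other LD retinas, and NL-1 lay just above LD-4, so that the groups overlapped by 1 retina. The change of 0.82 on the log2 scale (SE 0.24, limma adjusted p = 0.0261) was not called. It was 0.60 without LD-8 (adjusted p = 0.0229, range over the alternatives 0.00602 to 0.104).

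*Il1a* (chromosome 2 from 129299610 to 129309972), an agonist of IL1R1, was at 0.426, 0.525, 0.524, 0.597 and 0.609 FPKM under NL and at 1.72, 0.700, 0.476, 0.845 and 0.546 FPKM after LD. LD-1 alone was over 1 FPKM, with 83 reads against 21 to 38 in the rest of its group and 18 to 31 under NL. The change of 0.47 on the log2 scale (SE 0.29, limma adjusted p = 0.269) did not pass the test, and it was 0.20 without LD-1 (adjusted p = 0.498, range over the alternatives 0.144 to 0.964). *Gm14023*, a gene on the opposite strand that overlaps *Il1a*, had 12 to 29 reads in each NL and 16 to 20 in each LD retina, and the sources used here do not say whether counting used strand. Other genes that overlap the set had at most 9 reads in any retina.

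*Il1rn* (ENSMUSG00000026981, chromosome 2 from 24336853 to 24351494) encodes the antagonist that occupies IL1R1 without signalling. It had 1 read in NL-1 and 0 in the other NL retinas, and 30, 18, 29, 90 and 64 reads in LD-1, LD-4, LD-6, LD-7 and LD-8, or 0.222, 0.160, 0.234, 0.714 and 0.520 FPKM. The groups did not overlap, and LD-7 and LD-8 were higher than the other LD retinas. Set against a level of 3 reads in each NL retina, which allows for counting error only, the LD mean of 0.370 ± 0.237 FPKM (SD, n = 5) was at least 14.9-fold higher, and *Il1rn* was called (adjusted p = 6.30e-04 in limma). Its fitted log2 fold change of 2.07 (SE 0.31) depends on the pseudocount and was 0.44 with a pseudocount of 1, under 2-fold.

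The ratio of *Il1rn* to *Il1a* FPKM, with no pseudocount, was 0.0198 in NL-1 and 0 in the other NL retinas, and 0.129, 0.229, 0.493, 0.845 and 0.951 in LD-1, LD-4, LD-6, LD-7 and LD-8. The LD retinas were all above the NL retinas, and LD-1, where *Il1a* was highest, was the lowest of them. With *Il1rn* at 0 or 1 read under NL, the size of the difference on the log2 scale is set by the pseudocount and is no measured value. It was 1.60 with a pseudocount of 0.1 (two-sided exact permutation test, p = 0.0159, adjusted p = 0.0159 over 3 ratios), 4.33 with 0.01 (exact p = 0.00794) and 0.20 with 1 (exact p = 0.389).

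The 3 receptor chains of the set were all higher after LD, and 1 of them was called. *Il6ra* (ENSMUSG00000027947, chromosome 3 from 89864059 to 89913196, minus strand), the chain that binds IL-6, was at 0.179, 0.114, 0.199, 0.131 and 0.0897 FPKM in the NL retinas and at 0.783, 0.890, 0.760, 1.07 and 1.09 FPKM in the LD retinas. No values overlapped, with 20 to 35 reads in each NL and 147 to 210 in each LD retina. The means were 0.143 ± 0.0454 and 0.917 ± 0.154 FPKM (SD over 5 retinas in each group), a change of 2.08 on the log2 scale (SE 0.19, limma adjusted p = 2.16e-05). With a pseudocount of 1 it was 0.74, under 2-fold.

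*Il1r1* (chromosome 1 from 40225080 to 40317257), the signalling receptor of IL-1, was at 1.85, 1.64, 1.41, 1.68 and 1.50 FPKM under NL and at 2.64, 3.41, 3.70, 2.88 and 2.50 FPKM after LD. The LD retinas were all above the NL retinas, and LD-4 and LD-6 were the highest. The change of 0.86 on the log2 scale (SE 0.13, limma adjusted p = 5.48e-04) was under 2-fold, while limma-voom, run on recovered reads, gave 1.02 and a call. *Il4ra* (chromosome 7 from 125552120 to 125579474), the chain shared by the receptors of IL-4 and IL-13, was at 2.13, 1.91, 1.53, 1.55 and 1.76 FPKM under NL and at 3.21, 3.57, 3.55, 3.23 and 2.65 FPKM after LD. Again the groups did not overlap, and the change of 0.84 on the log2 scale (SE 0.12, limma adjusted p = 4.16e-04) was under 2-fold. For each of these 3 receptor genes, as for *Csf1* and *Il1rn*, the two-sided exact permutation p was 0.00794, the smallest possible.

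Of the ligands outside the IL-1 and CSF1R groups, *Il6* was too low to be tested in limma and *Il15* did not pass the test. *Il6* (chromosome 5 from 30013114 to 30019981) had 0 reads in all 5 NL retinas and 6, 2, 0, 5 and 5 reads in LD-1, LD-4, LD-6, LD-7 and LD-8. Reads were thus present in 4 of the 5 LD retinas, at most 0.101 FPKM, and LD-6 had the same 0 as the NL retinas. The LD mean of 0.0650 FPKM was 1.15 times a level of 3 reads per NL retina, but LD-4 and LD-6 were themselves under 3 reads. A two-sided exact permutation test of the FPKM gave p = 0.0476. At this depth the size of the change could not be measured.

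*Il15* (chromosome 8 from 82331632 to 82403222), a ligand that supports NK and T cells, was at 0.414, 0.479, 0.327, 0.354 and 0.531 FPKM in NL-1, NL-4, NL-5, NL-7 and NL-8. After LD it was at 0.698 and 0.731 FPKM in LD-4 and LD-6, and at 0.236, 0.272 and 0.258 FPKM in LD-1, LD-7 and LD-8. The LD retinas thus fell on both sides of the NL retinas, 2 above all of them and 3 below all of them, with 13 to 37 reads each. The log2 fold change over all retinas was -0.06 (standard error 0.30, adjusted p = 0.913 in limma).

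LD-4 and LD-6 are also the LD retinas with *Xist* reads, a division of the retinas that was examined after the values had been seen. Among the 4 retinas with at least 57965 *Xist* reads, *Il15* was at 0.479 and 0.531 FPKM under NL and at 0.698 and 0.731 FPKM after LD. In the 6 retinas with at most 43 *Xist* reads it was at 0.327 to 0.414 FPKM under NL and 0.236 to 0.272 FPKM after LD. The effect of LD differed between both kinds of retina by 0.81 on the log2 scale (SE 0.30), with p = 0.0236 before and 0.252 after adjustment over all genes (limma moderated test, not a permutation test), so the difference did not pass the correction. Of the 9 tested genes *Il15* and *Il1r1* had an unadjusted p under 0.05 for this interaction, which held for 15.1% of all genes. LD-4 and LD-6 are also 1 of the close pairs, so that *Xist* presence and what these 2 retinas share otherwise cannot be told apart after LD.

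**Figure D3:**
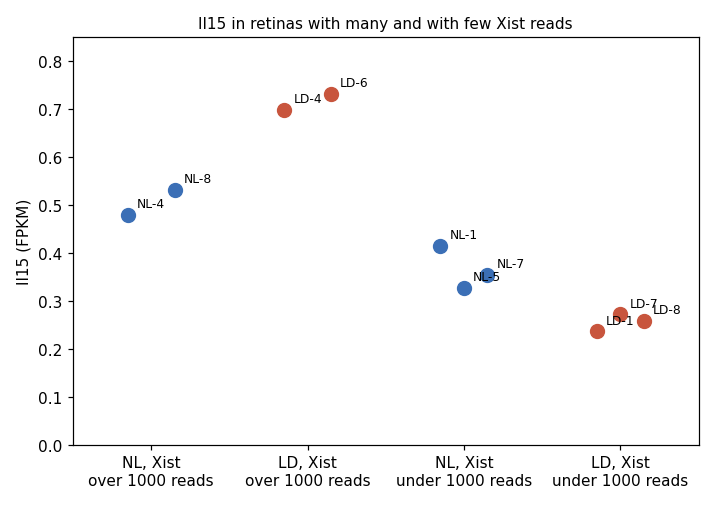
*Il15* in FPKM (linear axis from 0) in each retina, by light (NL blue, LD red) and by whether the retina had over or under 1000 *Xist* reads. With *Xist* reads the LD points (0.698 and 0.731 FPKM) lie above the NL points, and with few *Xist* reads the LD points (0.236 to 0.272 FPKM) lie below them.

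LD-4 and LD-6 also stood apart from LD-1, LD-7 and LD-8 in markers of Muller glia and endothelial cells. *Rlbp1*, a Muller glia gene of retinoid handling, was at 138 and 140 FPKM in LD-4 and LD-6 and at 67.2 to 74.1 FPKM in the other LD retinas, and the potassium channel gene *Kcnj10* at 23.9 and 23.3 against 10.4 to 14.9 FPKM. The endothelial gene *Pecam1* was at 1.33 and 1.61 against 0.658 to 0.754 FPKM. The 5 endothelial markers summed to 81.7 and 80.9 FPKM in LD-4 and LD-6, to 48.4 to 51.6 FPKM in the other LD retinas and to 33.3 to 44.1 FPKM under NL, with 0 of 5 called. Most of each sum was *Kdr*, at 64.4 and 62.5 FPKM in LD-4 and LD-6, 38.1 to 45.8 FPKM in the other LD retinas and 27.1 to 37.1 FPKM under NL. The 5 Muller glia markers summed to 401 and 418 FPKM in these 2 retinas, to 294 to 319 FPKM in the other LD retinas and to 817 to 1045 FPKM under NL, with *Glul* called lower. *Glul*, with means of 711 FPKM under NL and 165 FPKM after LD, made up most of the NL sum. It did not set LD-4 and LD-6 apart (156 and 170 against 158 to 177 FPKM). Of the 5 markers, 3 had a positive log2 fold change, with a median of 0.08 over the 5, and *Slc1a3* was higher after LD without overlap (0.50). Of 5 pigment epithelium and 5 ganglion cell markers 0 were called, with sums of 49.1 to 132 and 175 to 208 FPKM under NL and of 55.6 to 109 and 169 to 194 FPKM after LD. The part of these cells in the levels of *Il15* and *Il1r1*, which were both highest in LD-4 and LD-6, was not tested.

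The order of the levels changed with light. Under NL it ran from *Il33* through *Il34* to *Il4ra*, *Il1r1* and *Csf1*, whose ranges overlapped, then to *Il1a* and *Il15*, which also overlapped, and to *Il6ra*. After LD, *Csf1* stood second with a range apart from those of *Il33* and *Il34*, *Il4ra* and *Il1r1* overlapped, and *Il6ra* overlapped *Il1a*. *Il1rn*, at 1 read in all NL retinas together, reached the range of *Il15* after LD, and *Il6* remained the lowest.

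The partners of these receptors and ligands moved as follows. *Il6st*, which encodes gp130, went from 15.5 ± 0.862 to 31.0 ± 1.52 FPKM with light damage (SD, n = 5 each). Its change of 0.99 on the log2 scale (SE 0.05, limma adjusted p = 3.48e-07) stood just under the limit of 2-fold. *Il6st* was called under 11 of the alternatives and not called under 15. The ratio of *Il6ra* to *Il6st* FPKM was 0.00570 to 0.0131 under NL and 0.0255 to 0.0337 after LD. On the log2(FPKM + 0.1) scale it differed by 1.08 (two-sided exact permutation test, p = 0.00794, adjusted p = 0.0119 over 3 ratios), and with a pseudocount of 1, which is above every NL value of *Il6ra*, the difference was -0.21. *Il1rl1*, the receptor of IL-33, had 1 to 2 reads in each NL and 25 to 38 in each LD retina, at least 10.2-fold higher against a level of 3 reads, and was called (adjusted p = 7.09e-05). Like *Il1rn*, it passed the filter only through its LD retinas, and it was not called under 4 of its 25 alternatives. *Il13ra1*, the partner of *Il4ra* in the receptor of IL-13, rose from 0.172 ± 0.0613 to 0.845 ± 0.253 FPKM (SD, n = 5 each; log2 fold change 1.79, adjusted p = 3.97e-04). The call of *Il13ra1* was lost under 5 of its 25 alternatives. Not called were *Il1rap*, the accessory chain of IL-1 receptors (0.58, adjusted p = 0.0122), the decoy receptor gene *Il1r2* (0.57, adjusted p = 0.0620), *Il15ra* (0.77, adjusted p = 0.00719) and the common gamma chain gene *Il2rg* (0.33, adjusted p = 0.314). *Il2rb*, which IL-15 also needs, had at most 6 reads in any retina and was not tested.

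**Figure D4:**
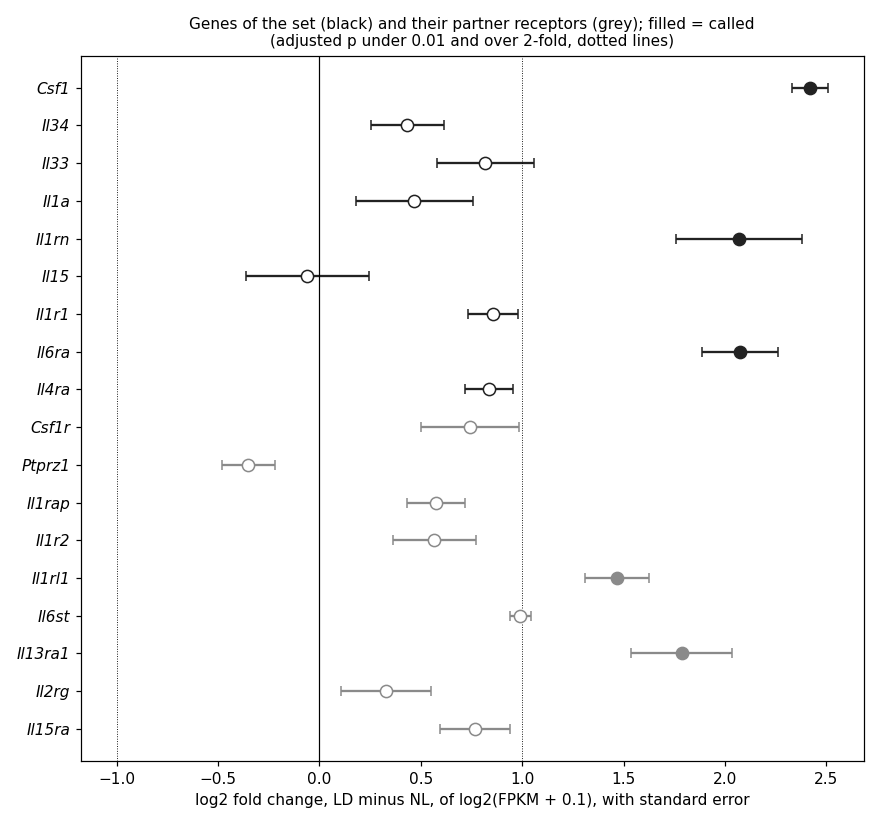
Log2 fold change of LD minus NL on the log2(FPKM + 0.1) scale with its standard error, for the 9 tested genes of the set (black) and 9 partner receptors (grey); filled points are called and dotted lines mark 2-fold. *Csf1*, *Il1rn*, *Il6ra*, *Il1rl1* and *Il13ra1* are filled, and *Il6st* lies at the dotted line with 0.99.

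Of 116 other genes in 13 lists of cytokine ligands, receptors and their signalling proteins, 75 passed the filter, 22 were called higher and 1 was called lower, with a median log2 fold change of 0.64. Of these 23 called genes, 11 were called under every alternative that gave a value and 12 lost the call under at least 1. *Il1rl1*, *Il27*, *Csf2rb*, *Il21r* and *Ifnlr1* had NL medians under 0.1 FPKM and reached the filter through their LD retinas. The count called higher and the median over the 75 genes were therefore favoured by the filter. In the IL-6 family the ligand genes *Il11*, *Il27*, *Lif* and *Clcf1* (4 of 7 tested) and the receptor gene *Osmr* (2 of 6 tested, with *Il6ra*) were called higher. *Il11*, at 7 to 9 reads in each NL and 14 to 27 in each LD retina, had a log2 fold change of 1.01 and was not called under 11 of its 25 alternatives. *Clcf1*, an agonist of the CNTF receptor, rose from 1.39 ± 0.120 to 10.6 ± 2.22 FPKM (SD, n = 5 each; log2 fold change 2.83, adjusted p = 2.56e-07). *Osmr*, the receptor chain of oncostatin M, went from 1.02 ± 0.283 to 8.12 ± 1.62 FPKM (2.89, adjusted p = 2.12e-06), and *Il27* from 0 to 6 reads to 19 to 112 reads per retina (3.65, adjusted p = 0.00158).

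Of the genes for IL-1 processing and signalling, *Myd88*, *Irak3* and *Casp1* (3 of 7 tested) were called higher. The adaptor gene *Myd88* rose from 2.00 ± 0.346 to 8.11 ± 1.41 FPKM (1.96, adjusted p = 6.04e-06), and *Casp1*, whose product cleaves the precursors of IL-1 beta and IL-18, from 0.212 ± 0.112 to 2.83 ± 0.427 FPKM (3.28, adjusted p = 3.02e-06; SD, n = 5 each). *Il1b* itself had 4 to 13 reads in each NL and 9 to 23 in each LD retina and was not called (0.76, adjusted p = 0.0799), nor was *Il18*, at 5.81 ± 0.844 and 6.16 ± 0.548 FPKM (0.09, adjusted p = 0.563).

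Of the JAK, STAT and SOCS genes, 8 of 14 tested were called higher, among them *Jak3*, *Stat2*, *Stat3*, *Socs1*, *Socs2*, *Socs3* and *Cish*. *Socs3*, an inhibitor of gp130 signalling, rose most of these, from 2.12 ± 0.304 to 51.0 ± 19.0 FPKM (SD, n = 5 each; log2 fold change 4.46, adjusted p = 3.21e-07). *Stat3* rose from 12.3 ± 2.10 to 44.1 ± 3.96 FPKM (1.85, adjusted p = 1.25e-06). *Socs2* was not called under 6 of its 26 alternatives. Also called higher were *Csf2rb*, *Il21r*, *Ifnlr1* and *Il17ra*, with log2 fold changes of 1.60, 1.12, 1.34 and 1.04. All of them but *Il17ra* reached the filter through their LD retinas. *Il21r*, whose groups overlapped, was not called under 18 of 25 alternatives, *Ifnlr1* under 12 of 25, *Il17ra* under 6 of 26 and *Csf2rb* under 5 of 25. *Il20ra*, a receptor chain of the IL-10 family, was the gene called lower (-1.12, adjusted p = 0.00103, not called under 4 of 25 alternatives).

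**Figure D5:**
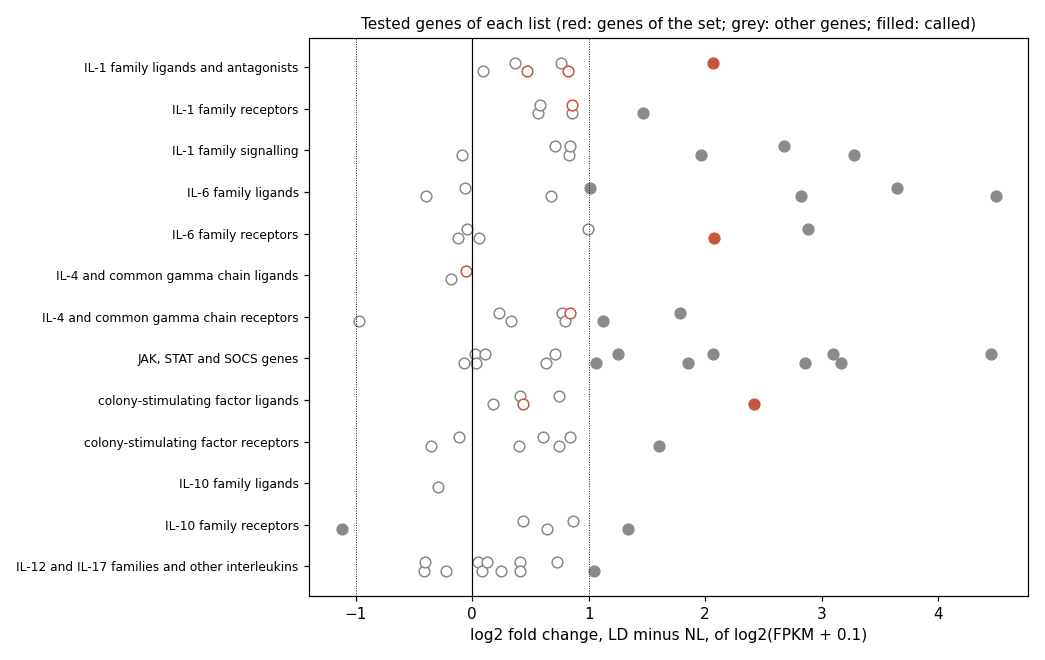
Log2 fold change of LD minus NL on the log2(FPKM + 0.1) scale for every tested gene of the 13 lists, with the genes of the set in red, other genes in grey and called genes filled; dotted lines mark 2-fold. The highest points are *Lif* at 4.50 among the IL-6 family ligands and *Socs3* at 4.46, and *Il20ra* at -1.12 is the only filled point left of 0.

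Markers of immune cells from the blood were low in both groups. Of 7 monocyte and neutrophil markers, *Ly6c2* had 0 reads under NL and 4 to 17 after LD, *Ccr2* had 0 to 1 and 2 to 21, and their list summed to 0.176 to 0.526 FPKM under NL and 0.384 to 1.07 FPKM after LD. In this list 2 were tested and 0 called, namely *S100a8* (log2 fold change 1.02, limma adjusted p = 0.121) and *S100a9* (-0.16, adjusted p = 0.792). *Cxcr2* and *Mpo* had at most 3 reads in any retina, and *Fpr1* had 0 to 4 under NL and 0 to 2 after LD. Of 6 T and NK cell markers, *Cd3d*, *Cd3e* and *Nkg7* had at most 3 reads in any retina and *Cd4*, the only one tested, had 4 to 17 under NL and 9 to 22 after LD (log2 fold change 0.24, adjusted p = 0.496), and the list summed to 0.216 to 0.267 FPKM and 0.145 to 0.333 FPKM. Whether such cells add to the levels of the 10 genes was not tested.

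For the 5 genes of the set that averaged 1 FPKM or more in either group, the protein-coding genes with the most similar profile over the 10 retinas were sought among 12684 candidates, as the root mean square difference of log2 values centred on each gene's mean. For *Csf1* these were *Cd14* (0.110), a receptor chain for bacterial lipopolysaccharide, *Axl* (0.139), a receptor tyrosine kinase, and *Smim3* (0.141). *Il1r1* was closest to *Tpcn2* (0.0788), *Onecut2* (0.0941) and *Eci2* (0.0946), and *Il4ra* to *Nod1* (0.0901), *Arrdc4* (0.0915) and *Adamtsl5* (0.0920). The nearest genes were farther away for *Il34*, with *Osbpl6* (0.142), *Fat1* (0.142) and *Nsa2* (0.158), and for *Il33*, with *Rhebl1* (0.222) and *Arsi* (0.277) among them.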

How the data were processed

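Neural retina samples, 5 NL and 5 LD, were profiled by RNA-seq, grouped by the sample labels. The authors deposited 1 table of FPKM for 54532 genes with positions and lengths, normalized by a company. The submitters' processing notes name TopHat2 2.0.9, Bowtie2 2.0.6 and genome build mm8, but 53499 of the 54409 gene IDs found in GENCODE M21 have its GRCm38 positions. The counting program and strand setting are not given in the sources used here. FPKM times length was a whole multiple of 1 step (within 0.01) for 100% of values above 0, so reads were recovered. The deposited library sizes carry a factor of 0.951 to 0.968 in NL and 1.04 to 1.07 in LD retinas.

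From the deposited FPKM, log2(FPKM + 0.1) was fitted in limma 3.58.1 (R 4.3.3) with an intensity trend over 24508 genes, and tested on simulated data. Where retinas were left out, the filter asked for as many retinas as the smallest group held, but the subsets by *Xist* kept the genes of the whole set. Single genes and ratios were compared by two-sided exact permutation tests (Python 3.11.15, numpy 2.4.6, pandas 2.3.3), and plots drawn with matplotlib 3.10.9. A gene with at most 3 reads in every NL retina was set against the level of 3 reads. Named were the 10 genes, called genes of the lists and a fixed set of partner receptors, while *Il1b*, *Il18*, *Gm14023* and the cell type markers were named after their values were seen. A few genes that the rule names are not reported here. The genes and lists were chosen with earlier results of these data known. In 23 further settings the analysis was repeated with changes to the pseudocount, filter, scaling, test, threshold, pairing and retinas, and 3 that use *Xist* were added after the values were seen. Deviations of same-numbered retinas correlated at -0.089 to 0.066.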

Additional observations from a re-analysis of the deposited data

Results flagged for a closer look

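Of 19 groups of 5 values, 1 gene in NL or LD each, examined for a retina far from the others, 1 was found, where chance gives 0.95. *Il1rn* was at 0.00845 FPKM in NL-1, which is 1 read, against 0 in the other NL retinas.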

How the results depend on the processing

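Of the 10 genes, 3 were called whichever of the 10 retinas was left out, while the number of all genes called was 1386 to 1609 against 1595 over all retinas. With a pseudocount of 1, 816 genes and 1 of the set (*Csf1*) were called. With a minimum of 1 FPKM in 5 retinas *Csf1* was again the 1 gene of the set called, since *Il1rn* and *Il6ra* are below that level. At an adjusted p under 0.05 and no minimum fold, 6818 genes and 6 of the set were called. Scaling without the factor per retina moved the median log2 fold change of all genes to 0.11, and limma-voom to 0.12.

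*Il15* had no stable sign. Its log2 fold change was 0.0031 with a pseudocount of 1, 0.048 without the factor per retina, 0.0070 with TPM, 0.43 in the retinas with *Xist* reads, and -0.25 to 0.081 with each retina left out. In the 6 retinas with few *Xist* reads 927 genes were called, and in the 4 with many 942 genes and 1 of the set. *Csf1* was called in both.

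The replicate numbers share 4 values between the groups but did not pair the retinas in their deviations. With these numbers as a replicate block, 815 genes were called against 1194 in the same 8 retinas without it, and *Il1rn* was no longer called (2.15, adjusted p = 0.0188). The block gave a difference of 2.12 for the *Csf1* to *Il34* ratio and 1.21 for *Il6ra* to *Il6st*, both with an exact p of 0.125, the smallest that 4 pairs allow, and 1.54 for *Il1rn* to *Il1a* (exact p = 0.25), which was also 1.54 without it (exact permutation p = 0.0571). With a pseudocount of 1 the *Il1rn* to *Il1a* difference was 0.20 and the *Il6ra* to *Il6st* difference -0.21. With each retina left out, the differences were 1.87 to 2.16 for *Csf1* to *Il34*, 1.36 to 1.97 for *Il1rn* to *Il1a* and 0.99 to 1.17 for *Il6ra* to *Il6st*. Averaging each close pair gave 2.10, 1.77 and 1.16 in the same order, each with a two-sided exact permutation p of 0.0286.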
